A study of Mus musculus and Homo sapiens with 22 samples.

Results

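The long noncoding RNAs described here were Malat1, Neat1, Tug1, Gas5 and Miat in mouse and MALAT1, NEAT1, TUG1, GAS5, MIAT and NORAD in human. They were chosen by name, with no threshold on a measured value but with earlier results of these data known, and were 5 of the 56196 genes in the mouse count files and 6 human genes. N6-methyladenosine (m6A) was mapped with miCLIP2, in which an antibody to m6A is crosslinked to RNA with UV light and the modified base is read at the position where reverse transcription stops. m6Aboost, a classifier, separated m6A sites from background peaks. The authors trained it on miCLIP2 peaks of their mESCs, and the sequence around a peak is among its inputs. The site lists came from mouse embryonic stem cells (mESCs) of wild-type (WT) genotype, from HEK293T cells, a human embryonic kidney line, and from purchased poly(A)+ RNA of mouse heart at inputs of 1 µg, 300 ng, 100 ng and 50 ng, with 1 library for each heart input. The mESC and HEK293T libraries were made from poly(A)+ RNA as well. Gene counts came from RNA-seq of 3 libraries of WT mESCs and 3 libraries of mESCs with a knockout of Mettl3 (Mettl3 KO), which encodes the catalytic subunit of the m6A methyltransferase. The WT and KO cells were taken from an earlier publication and both were grown with serum and LIF. The labels do not say how many KO clones were used, nor whether replicates were separate cultures, so the p-values below measure the spread between these libraries only.

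Malat1 and Neat1 are transcribed from neighbouring genes and are retained in the nucleus. Malat1 RNA gathers in nuclear speckles, which are rich in splicing factors, and Neat1 RNA is the scaffold of paraspeckles. Neat1 is made as a short polyadenylated transcript and a long transcript that start at the same promoter, and the long one is needed to build paraspeckles. Tug1 is a spliced RNA found in nucleus and cytoplasm, Gas5 is the spliced host RNA of several box C/D snoRNAs and is degraded by nonsense-mediated decay, Miat is a nuclear RNA of neural and cardiac tissue, and NORAD is a cytoplasmic RNA that binds PUMILIO proteins. METTL3 methylates adenosine mainly in the DRACH motif, where D is A, G or T, R is A or G, and H is A, C or T, and GGACT is its best known form.

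The sequences on which the site results turn were read from the genome around each listed base, over 21 nt with the 5 nt centred on the methylated A in capitals, 5′ to 3′ on the strand of the transcript. Positions called nt count along the joined exons of a gene from its 5′ end. The first set is a selection of mouse sites, on the minus strand of GRCm38, that were found in several site lists or matched a human site. The first Malat1 window is chr19:5801275-5801295 and holds nt 1388, the next is chr19:5801457-5801477 with nt 1206, and the last is chr19:5801415-5801435 with nt 1248.
Malat1 nt 1388: gctaggaaGGACTgaggagcc
Malat1 nt 1206: tgacaaaaGGACTtttgataa
Malat1 nt 1248: tttgcattGGACTtgagctga
The Neat1 windows are chr19:5844016-5844036 (nt 1453), chr19:5843413-5843433 (nt 2056) and chr19:5843983-5844003 (nt 1486), and the Tug1 windows are chr11:3646789-3646809 (nt 2720) and chr11:3646686-3646706 (nt 2823).
Neat1 nt 1453: tgtgctgcGAACTtggcctcg
Neat1 nt 2056: cagatatgGGACTtgtgggag
Neat1 nt 1486: aaggtgtaGGACActttaacg
Tug1 nt 2720: gccaccatGGACTccaggctc
Tug1 nt 2823: caattttgGAACTgttgatct

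The second set is a selection of human sites on the plus strand of GRCh38. It holds 6 of the 13 human sites whose aligned mouse base was also listed, namely those listed in both mESCs and heart, and MALAT1 nt 2842, which the alignment placed 4 nt from a mouse site. The MALAT1 windows are chr11:65500266-65500286 (nt 2637), chr11:65500328-65500348 (nt 2699) and chr11:65500471-65500491 (nt 2842). The NEAT1 windows are chr11:65424366-65424386 (nt 1603) and chr11:65424398-65424418 (nt 1635), and the TUG1 windows are chr22:30971524-30971544 (nt 2290) and chr22:30971631-30971651 (nt 2397).
MALAT1 nt 2637: aatgtgaaGGACTttcgtaac
MALAT1 nt 2699: tttgcattGGACTttgagtta
MALAT1 nt 2842: tgaagctaGGACTgaggagca
NEAT1 nt 1603: tgtgcttgGAACCttgcttca
NEAT1 nt 1635: aagctgtaGAACAttttaacg
TUG1 nt 2290: acagccatGGACTccagattt
TUG1 nt 2397: gaattttgGGACTgttgacct

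Malat1 (ENSMUSG00000092341.3) lies at chr19:5795690-5802672 on the minus strand of GRCm38 and its exons cover 6983 nt. Neat1 (ENSMUSG00000092274.3) lies on the same strand at chr19:5824708-5845478 with 20771 nt of exons. Tug1 (ENSMUSG00000056579.18) lies at chr11:3639785-3649673 on the minus strand with 9734 nt of exons, Gas5 (ENSMUSG00000053332.13) at chr1:161034422-161038539 on the plus strand with 3760 nt, and Miat (ENSMUSG00000097767.8) at chr5:112213228-112229395 on the minus strand with 9293 nt. Exons of other genes on the same strand covered 17.8% of the exon bases of Gas5, 7.74% of Miat, 6.66% of Tug1, 1.85% of Neat1 and 1.23% of Malat1, so the Gas5 count is the one that counting could split most.

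Between 22746733 and 27254245 reads per library were counted in genes, and 15731 genes had enough counts to be tested. Levels are given as CPM, counts scaled to a common library total. The summed level of 10 pluripotency markers was 4464 to 4856 CPM in WT and 3200 to 3280 CPM in KO, so both groups carried the markers of mESCs. Of the 10, 4 were called, all lower in KO (40%, beside 29.7% of all genes tested), namely Dppa5a, Tdgf1, Utf1 and Lin28a. Not called were Pou5f1 (log2 fold change -0.26), Klf4 (-0.17), Nanog (-0.067), Sox2 (0.010), Zfp42 (0.19) and Esrrb (0.43, edgeR adjusted p = 0.0106). Of 12 feeder fibroblast markers, 5 were tested and 1, Thy1, was called higher (20%, beside 29.7% of all genes tested). The log2 fold changes of those tested went both ways, with a median of 1.02. The summed level of all 12 was 98.8 to 182 CPM in WT and 113 to 154 CPM in KO. Most of it was Fbln1, which was counted 1971 to 4181 times in a library and did not pass (log2 fold change -0.28, edgeR adjusted p = 0.306). Thy1 was at 1.19 on the log2 scale, and Pdgfra (1.02, adjusted p = 0.0124) and Loxl1 (1.08, adjusted p = 0.0146) did not pass. Col1a1 was lower in KO and did not pass either (-0.81, adjusted p = 0.0737). Col1a1 and the markers not tested had at most 45 counts in any library, and Col3a1, Dcn, Lum and Postn at most 7. Their part in the results below was not tested. Of 10 cardiomyocyte markers, 5 were tested and 1, Ttn, was called (20%, beside 29.7% of all genes tested). Its log2 fold change in mESCs was 1.84, and the heart list at 1 µg held 195 sites in Ttn. In these bulk libraries fewer cells of a type and less RNA per cell cannot be told apart.

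Mettl3 itself was counted 560, 698 and 612 times in the WT libraries and 462, 669 and 457 times in the KO libraries. At 16.9 to 22.6 CPM in KO and 26.4 to 28.9 CPM in WT the groups did not overlap, and edgeR's quasi-likelihood test gave a log2 fold change of -0.50 ± 0.14 (SE, adjusted p = 0.0134), just outside the threshold of 0.01 used throughout. Counts over the whole gene do not show whether the remaining RNA is intact.

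Malat1 was among the most abundant RNAs of the cell, ranking between place 6 and place 15 of all genes by counts and taking 0.217% to 0.440% of all gene counts. It reached 4639, 4145 and 2404 CPM in WT and 2978, 3477 and 2801 CPM in KO. WT replicate 3 was the lowest of the 6 libraries and WT replicate 1 the highest, so the KO libraries lay inside the range of the WT libraries.

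Gas5 had 464, 503 and 257 CPM in WT and 442, 494 and 428 CPM in KO. As for Malat1, WT replicate 3 was lowest and the KO values lay within the WT range. Neat1 had 140, 210 and 87.8 CPM in WT and 66.7, 135 and 49.8 CPM in KO. Replicate 2 was the highest of both groups, each KO library was lower than the WT library with the same number, and the groups overlapped because KO replicate 2 exceeded WT replicate 3.

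Tug1 had 70.1, 62.5 and 90.3 CPM in WT and 21.6, 24.7 and 23.5 CPM in KO, and the lowest WT library lay well above the highest KO library. Miat was close to absent, counted 4, 2 and 4 times in the WT libraries and 7, 13 and 32 times in the KO libraries. Its mean level was 0.151 ± 0.0651 CPM in WT cells against 0.633 ± 0.482 CPM after the knockout (SD, n = 3). The groups did not overlap, and KO replicate 3 held most of its counts.

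**Figure D1:**
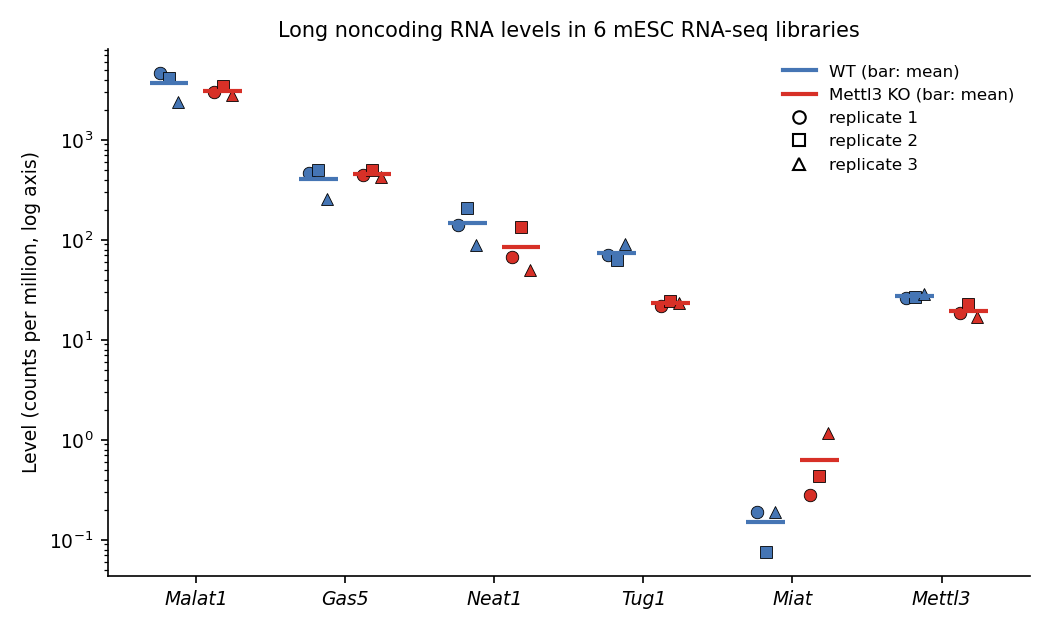
Level of Malat1, Gas5, Neat1, Tug1, Miat and Mettl3 in each RNA-seq library of mESCs, as CPM on a log axis. Blue points are WT and red points are Mettl3 KO, the marker shape gives the replicate number and the bar the mean of 3 libraries. Tug1 is the lncRNA with well separated groups, 62.5 to 90.3 CPM in WT and 21.6 to 24.7 CPM in KO, whereas the KO points of Malat1 and Gas5 lie within the WT range.

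To compare the genes with one another, levels were divided by exon length (RPKM, the CPM for each kilobase of exon). In WT mESCs the order was Malat1 at 534 ± 168 RPKM, Gas5 at 108 ± 35.1, Tug1 at 7.63 ± 1.47, Neat1 at 7.02 ± 2.95 and Miat at 0.0163 ± 0.00700 RPKM (SD, n = 3). Malat1 was above 99.7% of the genes tested and Gas5 above 98.2%, whereas Tug1 and Neat1 were above 66.1% and 64.2%. The libraries of Malat1, Gas5, the pair of Tug1 and Neat1, and Miat did not overlap, but those of Tug1 and Neat1 did. In KO cells Neat1 (4.04 ± 2.18 RPKM) and Tug1 (2.39 ± 0.163 RPKM) overlapped again, below Malat1 (442 ± 50.2 RPKM) and Gas5 (121 ± 9.27 RPKM). The RPKM of Neat1 divides by the exons of its long transcript, and a short transcript of 3004 nt that lies within it shares its reads, so the level of each form cannot be read from these counts. Exon length joins all annotated exons of a gene, 3760 nt for Gas5 and 9734 nt for Tug1. Their longest single transcripts have 2556 and 6719 nt. RPKM depends on the length chosen, and other lengths were not tried.

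Whether loss of METTL3 changed the level of these RNAs was tested in one edgeR fit over all 15731 genes, of which 29.7% were called at an adjusted p of at most 0.01, 17.1% higher and 12.6% lower in KO. These were 2687 genes higher and 1982 lower, and with scaling by library size only 2937 were higher and 1199 lower, since under that scaling the median log2 fold change over the genes tested was 0.085 in place of -0.017. Among the 958 long noncoding RNA genes tested, 19.6% were called, 6.26% higher and 13.4% lower. The groups did not overlap for 56.1% of all genes tested. Of the 5 members, 4 passed the filter on low counts and 1, Tug1, was called in this fit, which did not pair the libraries by replicate number. With the replicate number as a block Neat1 was called as well. Tug1 was the only one of these 4 whose groups did not overlap.

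Tug1 fell in Mettl3 KO cells. Its log2 fold change was -1.67 ± 0.15 (SE, edgeR adjusted p = 2.43e-05), a level 3.19-fold lower, and it was lower in 3 of 3 KO libraries. Over the alternative fits the log2 fold change lay between -1.79 and -1.51 and the adjusted p between 1.33e-29 and 0.000357. WT replicate 3 had the highest Tug1 level, and without it the log2 fold change was -1.51.

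Neat1 had a log2 fold change of -0.80 ± 0.37 (edgeR adjusted p = 0.0977), which did not pass the threshold. With the replicate number as a block the log2 fold change was -0.84 with an adjusted p of 3.13e-06, and with no filter on low counts it was -0.77 with an adjusted p of 4.79e-08, so the call depended on the fit. Over all fits the adjusted p ranged from 4.79e-08 to 0.320. The value also rested on replicate 2, since without KO replicate 2 it was -1.32 and without WT replicate 2 it was -0.45.

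Malat1 (log2 fold change -0.27 ± 0.23, adjusted p = 0.343) and Gas5 (0.16 ± 0.21, adjusted p = 0.567) did not pass the test. Both depended on WT replicate 3, and without that library Malat1 stood at -0.51 (adjusted p = 0.0133) and Gas5 at -0.088 (adjusted p = 0.538). Miat was below the filter on low counts. In the fits that kept it the log2 fold change lay between 1.71 and 2.42, and only the one with no filter on low counts gave an adjusted p under 0.01, namely 0.000772. The median log2 fold change of the 4 members tested was -0.53, beside -0.017 for all genes tested. The mouse gene named as NORAD's counterpart, 2900097C17Rik, was counted 850, 962 and 853 times in WT and 1059, 1281 and 1196 times in KO, without overlap, and its log2 fold change of 0.15 ± 0.10 (adjusted p = 0.261) did not pass the test.

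**Figure D2:**
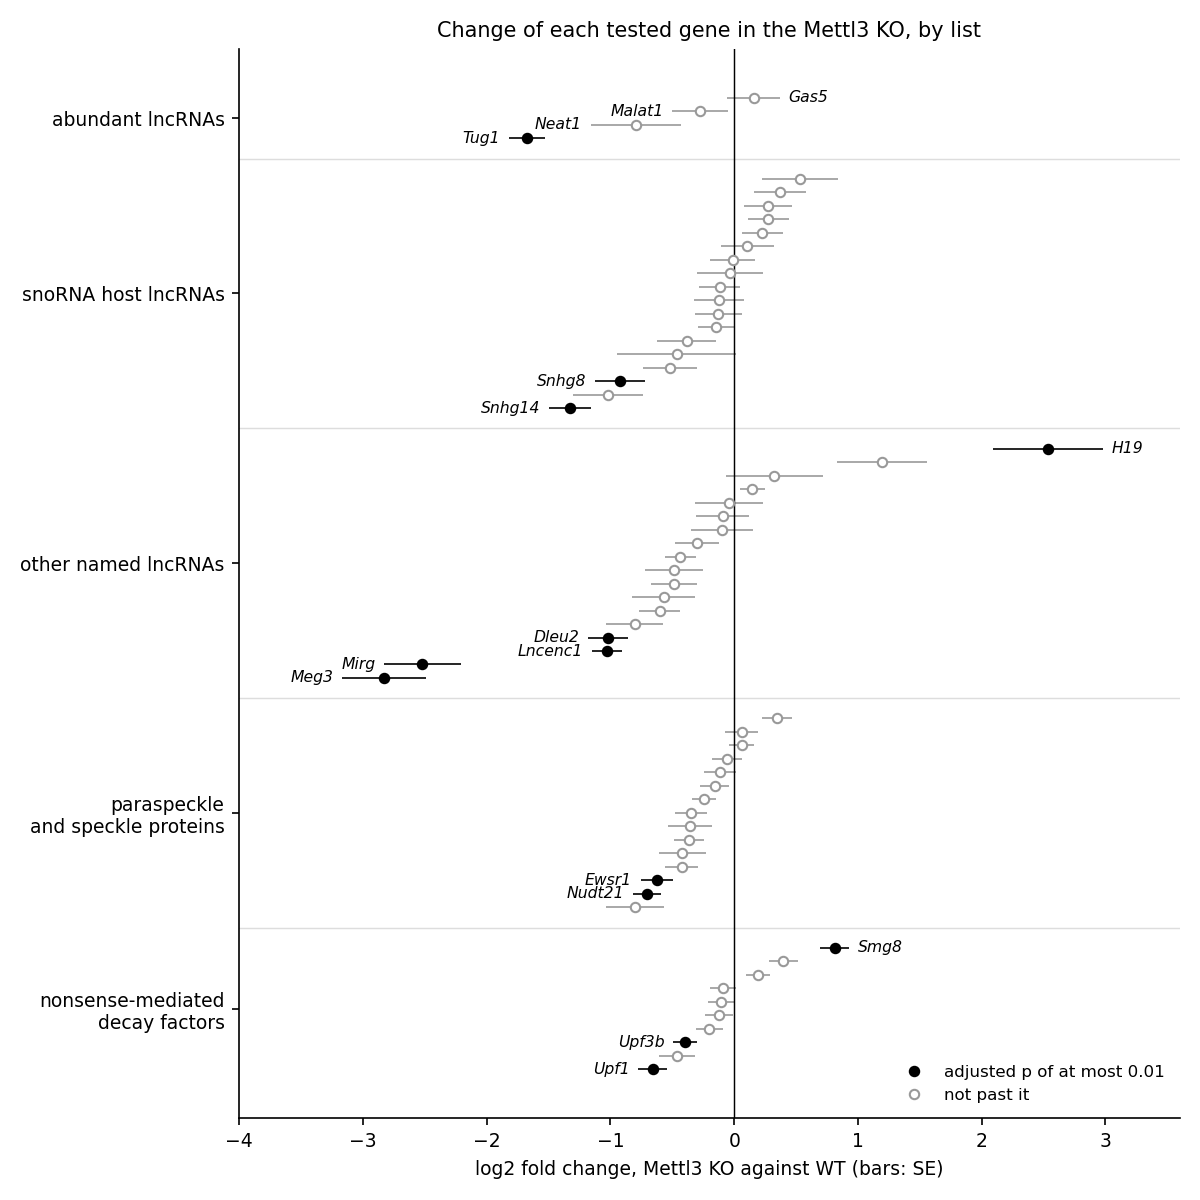
Log2 fold change of Mettl3 KO against WT mESCs for the members and for the genes of the lists of related genes, with bars for the standard error of the edgeR fit and 3 libraries in each group. Filled black points passed an adjusted p of 0.01. Tug1 at -1.67 is the filled point among the members.

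The snoRNA host genes, like Gas5, carry snoRNAs in their introns. Of 20 listed genes 18 were in the files and were tested, and 2 were called, both lower (11.1%, beside 29.7% of all genes and 19.6% of long noncoding RNA genes tested). The log2 fold changes went both ways, with a median of -0.12. Snhg14, the host of snoRNAs in the imprinted Snrpn region, fell from 39.2 ± 8.70 to 15.6 ± 1.45 CPM (SD, n = 3), with a log2 fold change of -1.33 (adjusted p = 0.000203). Snhg8 fell from 48.4 ± 13.7 to 25.6 ± 3.69 CPM, with a log2 fold change of -0.92 (adjusted p = 0.00432). Snhg1 (0.27, adjusted p = 0.264) and Zfas1 (0.37, adjusted p = 0.175), both hosts of several snoRNAs, did not pass. The number called rested on single libraries, with 5 called without WT replicate 3 and 1 without each of the other 5 libraries. Over all genes tested, 5412 were called without WT replicate 3 and 2761 to 4130 without 1 of the others.

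Of 29 other named long noncoding RNAs, 18 were tested and 5 were called, 1 higher and 4 lower (27.8%, beside 29.7% of all genes and 19.6% of long noncoding RNA genes tested), with a median log2 fold change of -0.46. With the replicate block 10 were called, 2 higher and 8 lower, and without WT replicate 3 there were 8. Over all genes tested these fits called more genes as well, 6837 of 15731 and 5412 of 16337. H19, an imprinted RNA and the host of a microRNA, was counted 233, 275 and 213 times in WT and 2950, 973 and 885 times in KO, with a log2 fold change of 2.53 (adjusted p = 0.00129), and KO replicate 1 stood far above the others. Meg3, the imprinted RNA of the Dlk1 region, was counted 206, 282 and 101 times in WT and 31, 42 and 24 times in KO, with a log2 fold change of -2.83 (adjusted p = 0.000151). Mirg, from the same region, fell by 2.52 on the log2 scale, and it is named only because it completes the count of 5, since its mean of 37.7 counts is under the minimum for naming. Lncenc1, a long noncoding RNA of embryonic stem cells, fell from 231 ± 22.2 to 113 ± 11.7 CPM (log2 fold change -1.03, adjusted p = 0.000122), and Dleu2, the host of a microRNA pair, from 30.4 ± 6.19 to 15.0 ± 0.870 CPM (log2 fold change -1.02, adjusted p = 0.000679).

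Among 16 proteins of paraspeckles and speckles, the bodies that Neat1 and Malat1 RNA gather in, 15 were tested and 2 were called, both lower (13.3%, beside 29.7% of all genes tested), with a median of -0.35. With the replicate block 7 were called, 1 higher and 6 lower, and 1 was called without KO replicate 1 or 3 and 4 without KO replicate 2. The block called 6837 of all 15731 genes tested. Without KO replicate 1, 2 or 3 the genes called numbered 2761, 3506 and 3109. Ewsr1, an RNA-binding protein of the FET family, had a log2 fold change of -0.63 (adjusted p = 0.00322), and Nudt21, a subunit of the cleavage factor that selects polyadenylation sites, one of -0.71 (adjusted p = 0.000790). The core paraspeckle proteins did not pass, with Nono at -0.11 (adjusted p = 0.487), Sfpq at -0.42 (adjusted p = 0.0911) and Pspc1 at -0.80 (adjusted p = 0.0182). Of 10 factors of nonsense-mediated decay, the pathway that degrades Gas5, all were tested and 3 were called, with a median of -0.12, and 5 with the replicate block. Without the block the share called, 30.0%, was close to the 29.7% of all genes tested. Smg8, a regulator of the SMG1 kinase, rose by 0.81 on the log2 scale (adjusted p = 0.000379), while Upf1, the helicase of the pathway, had -0.66 (adjusted p = 0.00115) and Upf3b, which links it to the exon junction complex, -0.39 (adjusted p = 0.00819).

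The genes whose log2 CPM over the 6 libraries was most like that of Tug1 were Chml, Eps8 and Spcs3, with Pearson's r of 0.9991, 0.9983 and 0.9983. For Neat1 they were Baz2b (0.9967), Cpt1a (0.9942) and Slc25a23 (0.9886), and for Malat1 Srcin1 (0.9974), Ddx17 (0.9965) and Tmem63b (0.9956). For Gas5 they were 8030474K03Rik (0.9871), Wasf3 (0.9854) and Nt5dc3 (0.9807), and for Miat, at its few counts, Mfng (0.968), Zmym5 (0.9667) and Zfp334 (0.9631). These are descriptions chosen as the highest among 10845 genes (10846 for Miat) over 6 libraries that fall into the same WT and KO groups.

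The members carried 27 of the 25456 m6A sites of WT mESCs, 54 of 46421 in heart at 1 µg and 41 of 36556 in HEK293T, that is 0.106%, 0.116% and 0.112% of each list. All of these sites were in exons, as were 25287, 44697 and 35867 sites of the whole lists. The joined exons of Malat1, Neat1, MALAT1, NEAT1, TUG1 and NORAD cover their whole genes, so their sites could not lie elsewhere. At lower heart inputs the members held 19 of 8845 sites with 300 ng, 5 of 1112 with 100 ng and 3 of 248 with 50 ng, which is 0.215%, 0.450% and 1.21%. Each list pools its replicates or comes from 1 library and gives no read depth, so site numbers have no spread and were not tested. Heart and HEK293T RNA levels were not analysed here, so a difference in site number between lists and a difference in RNA level cannot be told apart.

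Of the member sites 26 of 27 (96.3%) were at a DRACH motif in mESCs, 50 of 54 (92.6%) in heart at 1 µg and 38 of 41 (92.7%) in HEK293T, beside 92.9%, 93.1% and 89.3% of the whole lists. The pentamer GGACT was at 10, 16 and 8 of these sites. Since m6Aboost reads the sequence, the motif shares of the lists are not independent of the classifier. Genes annotated as long noncoding held 200 sites in 83 genes in mESCs, 845 sites in 253 genes in heart at 1 µg and 1384 sites in 365 genes in HEK293T. The human annotation used here classes TUG1 as protein coding, so its 24 sites are not in the HEK293T number. Sites were summed by gene, so a site in an exon shared by several genes counts for each. The mouse and human annotations class genes differently, so these numbers are not comparable between species.

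Malat1 carried 10 sites in mESCs, 7 in heart at 1 µg, 5 at 300 ng and 1 at each of 100 ng and 50 ng. The mESC sites lay between nt 1206 and nt 5610 and took up 8.20% of the 122 DRACH motifs of its exons, beside a median of 3.13% over the genes with sites. For this and the later medians all sites of a gene, at the motif or not, were divided by its motifs. The shares of the members count sites at the motif only. The 3 sites with the highest m6Aboost score, which runs from 0.5 to 1 in this list, were the GGACT sites at nt 1206 (0.983, above 99.8% of the list), nt 1248 (0.942) and nt 1388 (0.940). These are the 3 Malat1 windows printed above. The sequence is an input of the score, so a high score at GGACT is not separate evidence on the motif.

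The same 3 sites were also in the heart lists at 1 µg and 300 ng, and nt 1388 was in those at 100 ng and 50 ng as well. The heart scores have no stated scale and were used for their rank only, and 61 sites of the 1 µg list share its maximum. Of these 61 sites 5 were in Malat1, at nt 1112, 1206, 1248, 1388 and 3605, and 2 were in Neat1. At 300 ng nt 1248 held rank 17 and nt 1206 rank 19. The Malat1 site at nt 1388 was in all 5 mouse lists, sharing rank 1 at 300 ng and holding rank 5 at 100 ng and rank 7 at 50 ng. A Malat1 site at nt 1112 was in the heart lists at 1 µg and 300 ng but not in the mESC list, while the mESC sites at nt 2465, 3773, 3921, 4814 and 5610 were in no heart list. The mESC score was 0.940 in the median of the 5 Malat1 sites also in heart at 1 µg and 0.661 in the median of the 5 that were not.

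Neat1 carried 11 sites in mESCs, 18 in heart at 1 µg, and 8, 3 and 2 at the inputs of 300, 100 and 50 ng. Those at the motif took up 2.48% of its 403 DRACH motifs in mESCs and 3.97% in heart at 1 µg, beside medians of 3.13% and 4% over genes. The sites of Neat1 were packed at the 5′ end. All 11 mESC sites lay between nt 740 and nt 2056, and the span of the annotated short transcript (chr19:5842307-5845476) held 11 of 11 mESC sites and 16 of 18 sites of heart at 1 µg. That span holds 63 of the 403 DRACH motifs of Neat1, or 15.6%, and 15.3% of its exon length. All sites of the lower heart inputs lay within it as well. The other 2 sites of heart at 1 µg were at nt 20146 and nt 20224, close to the 3′ end of the long transcript, and their scores were above 2.53% and 6.40% of that list. Reads from the short and long transcripts cannot be told apart within the shared span. All site lists came from poly(A)+ RNA, and the short transcript is the polyadenylated one. The parts that this selection and transcript abundance have in this distribution were not tested.

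The Neat1 site with the highest mESC score, nt 1453 (0.947), was a GAACT site found in all 5 mouse lists. The GGACT site at nt 2056 (0.887) was found in 4 of them, as was the GGACT site at nt 1790 (0.731). Of the 11 mESC sites 8 were also in heart at 1 µg, with a median mESC score of 0.762, and the other 3 had a median of 0.516.

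Tug1 was the member whose site number differed most between the mouse lists. It had 3 sites in mESCs, 29 in heart at 1 µg, and 6, 1 and 0 at the inputs of 300, 100 and 50 ng. The 3 mESC sites, at nt 2720, nt 2745 and nt 2823, lay within 104 nt, with scores of 0.938, 0.574 and 0.901, whereas the heart sites reached from nt 2074 to nt 9468. In heart at 1 µg only 35 genes had 29 or more sites, so Tug1 had more sites than 99.6% of the genes with sites. Its 27 sites at the motif took up 11.6% of its 233 DRACH motifs, beside a median over genes of 4% that counts all sites. In the mESC list Tug1 had more sites than 47.1% of the genes with sites, and its sites took up 1.29% of its motifs beside a median of 3.13%. The sites at nt 2720 and nt 2823 were found in both mESCs and heart, and the first of these was the Tug1 site that remained in the heart list at 100 ng.

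Gas5 had 3 sites in mESCs and none in any heart list. They were a GGACA site at nt 1001 (chr1:161035780, score 0.773), a GGACT site at nt 1430 (chr1:161036209, score 0.587) and a GGACA site at nt 3464 (chr1:161038243, score 0.707). These bases are exonic in 18, 19 and 18 of the 25 annotated Gas5 transcripts. Miat had no site in any mouse list. 2900097C17Rik had 4 sites in heart at 1 µg and 0 in the other lists, and its RNA level in WT mESCs was 39.0 ± 2.07 CPM (SD, n = 3).

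**Figure D3:**
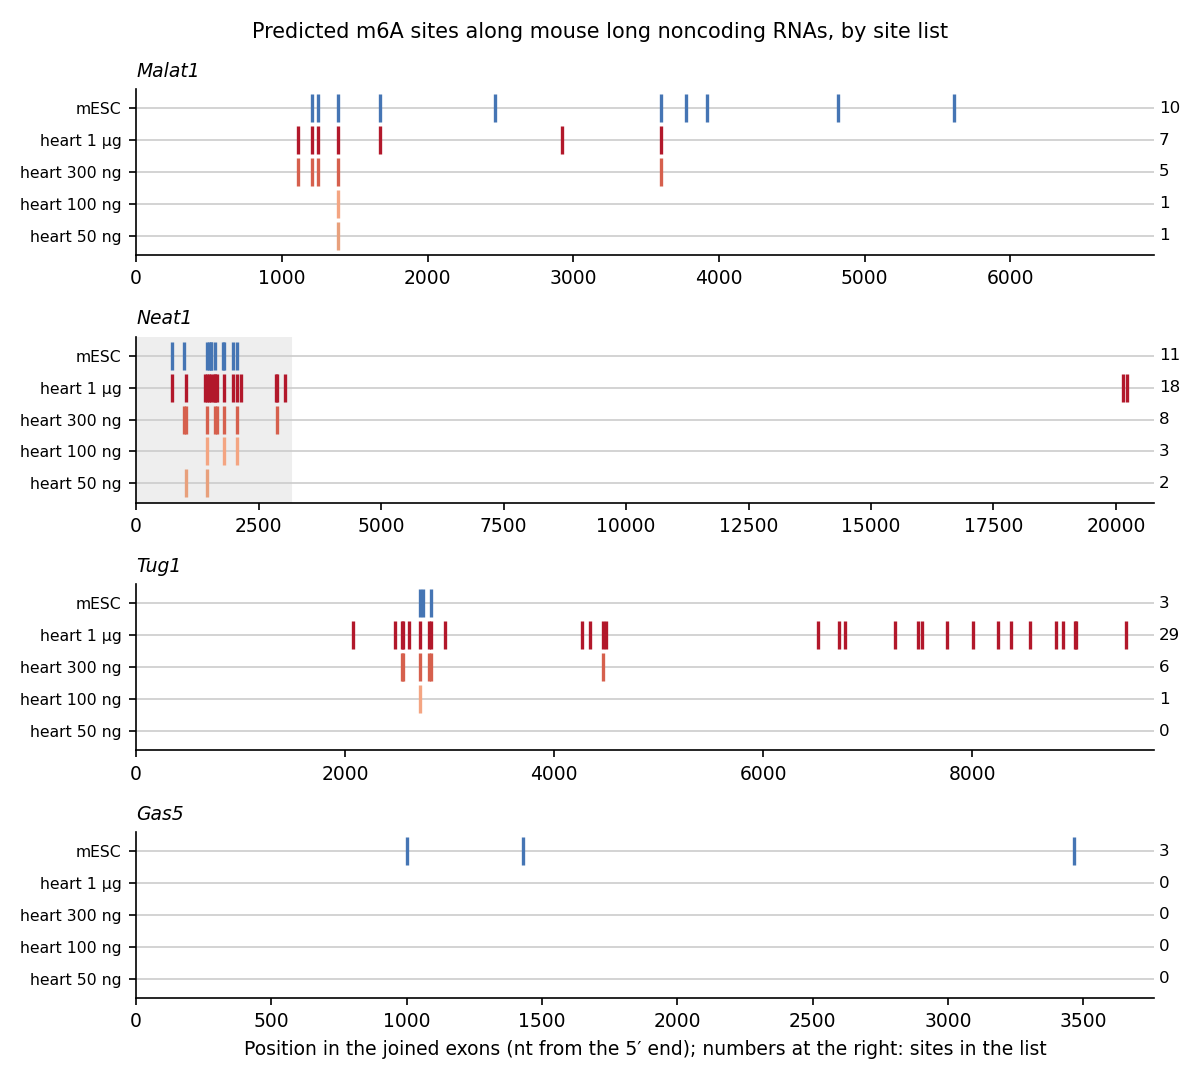
Predicted m6A sites along the joined exons of mouse Malat1, Neat1, Tug1 and Gas5, with the distance from the 5′ end in nt on the x axis and 1 row of ticks for each site list. The numbers at the right count the sites, and the grey band in Neat1 is the span of its short transcript. Neat1 sites crowd into that band (11 of 11 in mESCs), and Tug1 has 3 sites in mESCs and 29 in heart at 1 µg.

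Of the 27 member sites of mESCs, 15 (55.6%) were at the same base in heart at 1 µg, which is 27.8% of the 54 heart sites. The whole lists shared 15166 sites, 59.6% of the mESC list and 32.7% of the heart list. Of the 15 sites, 5 were in Malat1, 8 in Neat1, 2 in Tug1 and 0 in Gas5. Within heart, 18 of the 19 sites at 300 ng (94.7%), 5 of 5 at 100 ng and 3 of 3 at 50 ng were in the 1 µg list, beside 93.4%, 96.2% and 95.6% of the whole lists. In Malat1 6 sites were in a single mouse list, in Neat1 9 and in Tug1 24.

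In HEK293T cells TUG1 had 24 sites, NORAD 7, NEAT1 5, MALAT1 4, GAS5 1 and MIAT 0. TUG1 (chr22:30969245-30979395, plus strand of GRCh38) had more sites than 99.4% of the genes with sites, and only 48 genes had 24 or more. All 24 were at DRACH motifs, they reached from nt 299 to nt 9491 and took up 10.4% of the 230 motifs of its exons, beside a median of 4.01% over genes. Their scores ran from 0.505 to 0.939 with a median of 0.782, and the highest was a GAACT site at nt 9363. GGACT was at 4 of the 24 sites.

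MALAT1 (chr11:65497640-65508073, plus strand) had its 4 sites within 206 nt, from nt 2637 to nt 2842, and all 4 were GGACT. Their scores were 0.643, 0.799, 0.885 and 0.805 in the order of position, and they took up 2.06% of its 194 DRACH motifs, beside a median of 4.01% over genes. The authors list all 4 bases as methylated by SCARLET, a published method without an antibody. Their order by that method differs from their order by score, so the score is not a methylation level. NEAT1 (chr11:65422774-65445540, plus strand) had 5 sites between nt 987 and nt 1643 with scores of 0.569 to 0.746, none of them GGACT. As in mouse they all lay in the span of the annotated short transcript (chr11:65422774-65426457), which holds 67 of its 365 DRACH motifs (18.4%). NEAT1 sites at the motif took up 1.10% of those 365, beside the median of 4.01%.

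NORAD (chr20:36045618-36051018, minus strand) had more sites than 75.5% of the genes with sites, and 6 of its 7 sites lay between nt 297 and nt 1008 of its 5401 nt. Of these 7 sites 5 were at DRACH motifs, and the site with the highest score (0.799) was a GGACG outside that motif. It is the first of the following 2 windows, at chr20:36050504-36050524 and chr20:36050394-36050414 on the minus strand, shown because one lies outside the motif and the other within it.
NORAD nt 505: cggcctagGGACGcaagcagg
NORAD nt 615: acgacaacGGACAaaggcctt
The single GAS5 site (chr1:173866199, minus strand, AGACA, score 0.641) was exonic in 83 of 91 annotated transcripts and intronic in 6. MIAT, whose exons hold 329 DRACH motifs, had no site.

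To see whether the same bases were listed in both species, the exons of each human and mouse pair were aligned. Of 41 human sites 30 fell in aligned sequence, 26 of them opposite an A and 18 opposite a DRACH motif of mouse, and at 13 the aligned base was a listed mouse site in mESCs or heart at 1 µg. Of these 13, 8 were in TUG1, 3 in NEAT1 and 2 in MALAT1.

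In MALAT1 85.5% of aligned bases were identical and all 4 sites were aligned. The sites at nt 2637 and nt 2699 matched the mouse sites at nt 1206 and nt 1248, which were listed in both mESCs and heart and are the GGACT windows printed at the start. The human site at nt 2733 faced CGACT in mouse and was not listed there. The human site at nt 2842 aligned 4 nt from the mouse site at nt 1388, the one found in all 5 mouse lists. Counted within 5 nt, a distance chosen after seeing the data, 14 of the 41 human sites had a mouse counterpart.

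In NEAT1 8.89% of the human exon bases could be aligned, at 80.4% identity, and all 5 human sites fell in that part. The sites at nt 1603 and nt 1635 matched the mouse sites at nt 1453 and nt 1486, and the pentamers were GAACC in human and GAACT in mouse for the former and GAACA and GGACA for the latter. The site at nt 1170 (GGACC) matched the mouse site at nt 1026 (GGACG), which was listed in heart but not in mESCs. In TUG1 60.1% of the human exon bases were aligned at 83.1% identity, and of 20 aligned sites 8 were listed in mouse. The human sites at nt 2290 and nt 2397 matched the mouse sites at nt 2720 and nt 2823, which were in both mESCs and heart, and the other 6 matched sites that were in heart only. The GAS5 site was not aligned, and of the 7 NORAD sites 1 was aligned and none was listed in mouse.

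**Figure D4:**
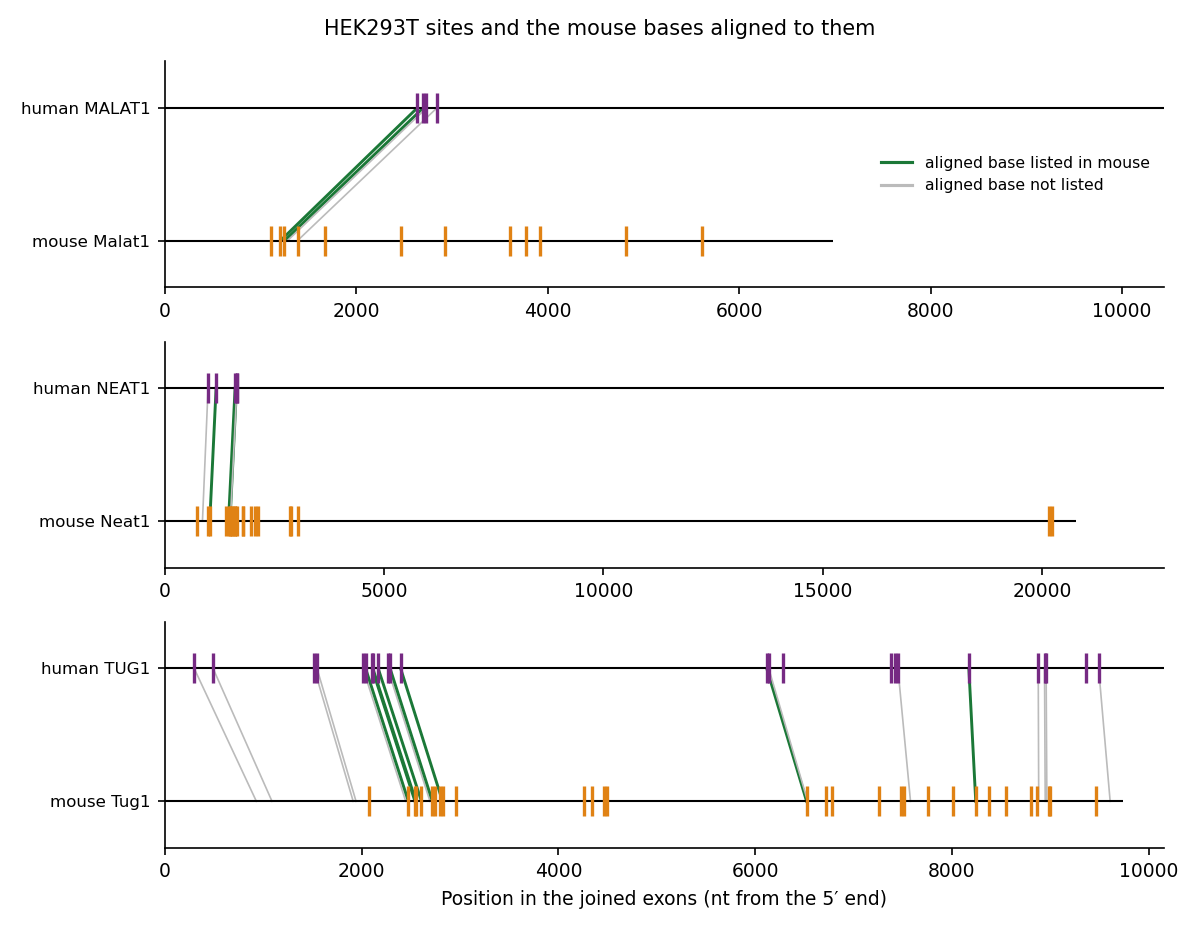
m6A sites of HEK293T (purple) and of mouse (orange, mESC or heart at 1 µg) along the joined exons of MALAT1, NEAT1 and TUG1, with the distance from the 5′ end in nt on the x axis. Green lines join human sites to an aligned mouse base that was listed and grey lines to one that was not. Of the human sites, 2 in MALAT1, 3 in NEAT1 and 8 in TUG1 have a green line.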

How the data were processed

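Values were taken as deposited by the authors. The gene counts are whole numbers that the authors made from single-end reads with STAR 2.6.1b on GRCm38 and htseq-count (HTSeq 0.12.4) on the reverse strand, and they are not normalised. The score deposited by the authors with each mESC and HEK293T site is the m6Aboost prediction score. Their miCLIP2 reads were mapped with STAR 2.7.3a and freed of duplicates with UMI-tools 1.0.0, and peaks were called with PureCLIP. Versions are those of the submitters' processing notes. The scale of the heart score is not stated, so it was used for ranks only. Heart sample titles give the 3 lower inputs in µg, whereas the list names and the study give ng, which was used. miCLIP2 samples of Mettl3 KO cells were not used here.

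Lines naming no gene (36.7% to 42.7% of each file) were left out. Genes were tested with edgeR 4.0.16 in R 4.3.3 (filterByExpr, TMM normalisation, then glmQLFit and glmQLFTest without covariates), with Benjamini-Hochberg adjustment over all genes tested and a threshold of 0.01. The standard error is the size of the log2 fold change divided by the square root of F. CPM use TMM factors, and correlations use log2(CPM + 0.5). The test was checked on simulated data. Sites were placed in exons of GENCODE M21 (mouse) and GENCODE 44 (human) on the same strand, neither being the release the authors used, with 1-based positions. Exons were aligned with blastn (BLAST 2.17.0, word size 11, E-value 1e-5). Figures were drawn with Matplotlib 3.10.9.

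Deviations from the group means of same-numbered WT and KO libraries correlated at 0.161, 0.503 and 0.3505, each over 0.1. The reported fit does not pair the libraries, and the alternative fit with the replicate number as a block does. No label states what same-numbered libraries share, and of the 6 pairs with different numbers 1 was also over 0.1 (WT replicate 3 with KO replicate 1, 0.114). No pair of libraries of the same group agreed within sampling noise.

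The members and lists were chosen with earlier results of these data known. Named genes are the members, Mettl3, up to 3 called genes of each list with the largest rise and 3 with the largest fall at a mean of at least 100 counts, and the 3 genes most like each member. Marker genes, Snhg1, Zfas1, Nono, Sfpq, Pspc1, Mirg and 2900097C17Rik were named outside that rule, after their values were seen. Named sites are up to 4 for each member and list, found in most lists or species and then by score, and sites given only by position were added. Snhg4 and Snhg7 were not matched, Snhg16 and Oip5os1 were matched through synonyms. Alternatives were library size only, DESeq2 1.42.0 and edgeR with the size factors of DESeq2, other filters on low counts, a threshold of 0.05, the replicate block, leaving out each replicate, sites in the whole gene body, sites at or above the median score, RRACH, positions within 2 nt and blastn with word size 7.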

Additional observations from a re-analysis of the deposited data

How the results depend on the processing

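Of 202 alternative values, 157 kept their direction and side of the threshold or moved little, 42 moved, 2 passed the threshold anew and 1 changed sign. Genes called numbered 4669 in the reported fit, 7336 at an adjusted p of 0.05, and 2761 (without KO replicate 1) to 5412 (without WT replicate 3) when 1 replicate was left out, with 3108 without WT replicate 1 and 3109 without KO replicate 3. With the replicate block 6837 genes were called, Neat1 passed at -0.84, and 3 snoRNA hosts, 10 other long noncoding RNAs, 7 paraspeckle and speckle proteins and 5 decay factors were called, against 2, 5, 2 and 3 without it. The block changed no call of Malat1, Gas5 or Tug1. Neat1 also passed with no filter on low counts, at -0.77. Gas5 changed sign without WT replicate 3, to -0.088. With 1 replicate left out, Malat1 lay between -0.51 and -0.090, Neat1 between -1.32 and -0.45, Tug1 between -1.79 and -1.51 and Gas5 between -0.088 and 0.33. The cause of these shifts was not tested.

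Over all genes tested, 4136 of 15731 were called by library size only and 6406 of 31057 with no filter on low counts. With DESeq2 5481 of 15731 were called, and at an adjusted p of 0.05 7336 of 15731. Called snoRNA hosts numbered 1 by library size only, 5 with no filter and 1 to 5 with 1 replicate left out (5 without WT replicate 3, and 1 without each of the others). Other long noncoding RNAs numbered 9 with DESeq2 (18 tested), with no filter (26 tested) and at an adjusted p of 0.05 (18 tested). They numbered 5 to 8 with 1 replicate left out (8 without WT replicate 3). Paraspeckle and speckle proteins numbered 1 by library size only, 7 at 0.05, and 1 (without KO replicate 1 or 3) to 4 (without KO replicate 2). Decay factors numbered 5 at 0.05 and 2 to 3 with 1 replicate left out. Kept to sites at or above the median score of their list, the members had 12 sites in mESCs, 36 in heart at 1 µg, 12 at 300 ng, 3 at 100 ng, 1 at 50 ng and 22 in HEK293T. Sites in the whole gene body, RRACH and the other alignment setting left the numbers of member sites and of shared bases within 1.5 times, apart from NORAD sites at the motif. With 3 libraries a group and 1 site list a tissue, differences between site lists have no error, and the lists give no read depth.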

Other observations

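Xist, the RNA of X inactivation, had at most 14 counts in any mESC library and no site in the mESC list, and it had 30 sites in heart at 1 µg. Oip5os1 (1700020I14Rik), a conserved RNA that directs the decay of a microRNA, had 16 sites in heart at 1 µg and 6 in mESCs, and its log2 fold change in Mettl3 KO mESCs was -0.43 (edgeR adjusted p = 0.0154), which did not pass the threshold. Lncenc1 had 14 sites in mESCs, more than any of the members, and none in heart at 1 µg. The heart RNA levels of these genes were not analysed here.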
